A study of Mus musculus with 18 samples.

Results

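The genes described here are 9 complement components and regulators, chosen by symbol: *C1qa*, *C1qb*, *C1qc*, *C2*, *C3*, *C4b*, *Cfb*, *Cfi* and *Serping1*. Each symbol had 1 row among the 49585 gene rows of the kidney table, and all 9 were among the 16984 genes tested. Bulk kidney RNA was sequenced from *Lin28A* OE mice, which carry Lox-stop-Lox-TetOn-Lin28A together with Six2Cre, and from control mice with Lox-stop-Lox-TetOn-Lin28A alone. Both received doxycycline (Dox), the inducer of the transgene, at 1 g/L of drinking water for 1 week (1W), 2 weeks (2W) or 5 weeks (5W), with 3 libraries per genotype and time. Six2Cre removes the stop cassette in the cap mesenchyme and its descendants, so the transgene can be induced in nephrons, while whole kidneys were sequenced. The labels give neither sex nor age, and do not state that replicates came from separate mice, so p-values measure the spread between these libraries.

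Complement is a cascade of plasma and cell-surface proteins that tags and lyses targets and recruits leukocytes. The classical pathway starts when C1q binds immune complexes or dying cells and its partner proteases cleave C4 and C2, the lectin pathway starts from sugar-binding proteins, and the alternative pathway amplifies C3 cleavage through factor B. All 3 routes meet at C3, and soluble and membrane-bound regulators hold them in check. The liver makes most plasma complement, macrophages make much of the C1q in tissues, and kidney tubule cells can make C3.

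The libraries held 21176911 to 28686369 reads assigned to genes. Values below are normalized reads, that is reads scaled by the DESeq2 size factor of their library, and fold changes are differences of log2(normalized reads + 1), which understate changes of genes with few reads. *Lin28a* reads checked the labels. They spanned 41737 to 68744 in OE and 15.6 to 28.4 in control libraries at 1W, 52622 to 116461 in OE and 14.4 to 19.4 in control libraries at 2W, and 420 to 615 in OE and 16.4 to 28.5 in control libraries at 5W. All OE libraries at 5W thus had far fewer *Lin28a* reads than any OE library at 1W or 2W. Comparisons of 5W with the earlier times therefore also compare unlike *Lin28a* levels. Summed reads of 10 nephron markers were 72484 to 100801 in OE and 431157 to 461936 in control libraries at 2W. Of the 10 markers 9 were lower by the test at 2W, as were 28.8% of all genes tested. In bulk kidney, fewer cells of a type and less RNA per cell cannot be told apart.

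Complement members were mostly higher in *Lin28A* OE kidneys at every time. *C1qa*, *C1qb*, *C1qc*, *C3*, *C4b*, *Cfi* and *Serping1* passed the test at 1W, 2W and 5W, all higher in OE, and *C2* and *Cfb* passed at none (limma, Benjamini-Hochberg adjusted p under 0.05 over all genes tested). These 7 of 9 members stand against 18.7% of all genes tested that were higher at 1W, 28.9% at 2W and 7.67% at 5W. The members and gene lists were chosen with earlier results of these data known. Their counts beside the shares of all genes are therefore a description and no test of the lists. The median log2 fold change of the 9 members was 2.35 at 1W, 2.50 at 2W and 2.13 at 5W, beside -0.02, 0.01 and 0.02 over all genes tested. No member passed as lower, where 15.6%, 28.8% and 7.9% of all genes did at the 3 times. At an unadjusted p under 0.05, 0 members were lower at 1W, 1 at 2W (*Cfb*) and 0 at 5W by limma, and edgeR and DESeq2 each gave 0, 1 and 0 at an adjusted p under 0.05. With a log2 fold change above 1 required as well, 6 members qualified at 1W, 7 at 2W and 7 at 5W, against 8.21%, 14.8% and 4.82% of all genes. The 3 OE libraries all exceeded the 3 controls for 6 members at 1W, 7 at 2W and 7 at 5W, which was so for 25.4%, 31.0% and 17.3% of all genes.

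**Figure D1:**
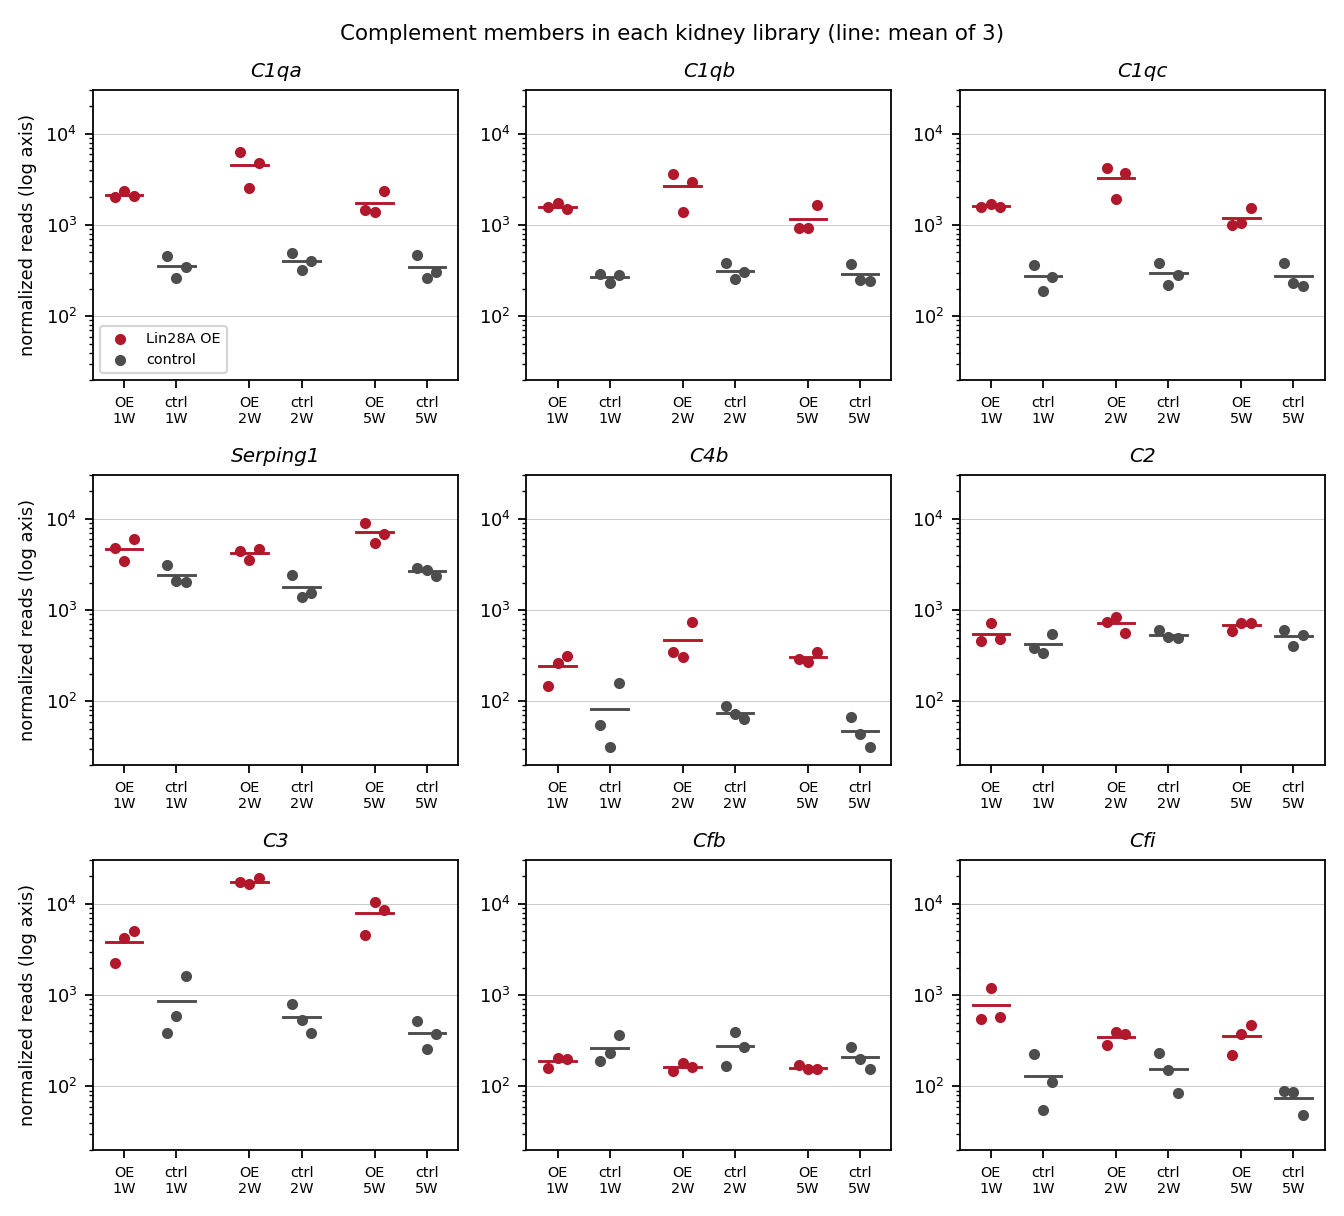
Normalized reads (log axis) of the 9 members in each library, with *Lin28A* OE (red) left of control (grey) at 1, 2 and 5 weeks of Dox, 3 libraries per group, and a line at the group mean. The 3 C1q chains, *C3*, *Cfi* and *Serping1* have every OE library above every control of the same week, *C4b* does so at 2W and 5W, and *C2* and *Cfb* overlap throughout.

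The C1q chains are encoded side by side on the minus strand of chromosome 4 (GRCm38), *C1qb* at 136880129 to 136886187, *C1qc* at 136889804 to 136893065 and *C1qa* at 136895917 to 136898803. Their products assemble into one molecule, the recognition unit of the classical pathway. No exon base of the 3 genes is shared with another annotated gene. RefSeq promoters (GRCm38.p6, 250 bases before to 50 after the start) were at hand for *C1qb* and *C1qc*, printed here 5′ to 3′ because these neighbours moved together. Both lie on the minus strand, *C1qb* at chr4:136886151-136886450 and *C1qc* at chr4:136892865-136893164.
C1qb: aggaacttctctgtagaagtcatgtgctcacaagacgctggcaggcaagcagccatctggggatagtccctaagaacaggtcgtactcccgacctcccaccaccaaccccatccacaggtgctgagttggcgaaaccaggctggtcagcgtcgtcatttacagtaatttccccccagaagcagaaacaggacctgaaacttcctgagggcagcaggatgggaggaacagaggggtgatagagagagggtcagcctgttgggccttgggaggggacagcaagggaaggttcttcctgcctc
C1qc: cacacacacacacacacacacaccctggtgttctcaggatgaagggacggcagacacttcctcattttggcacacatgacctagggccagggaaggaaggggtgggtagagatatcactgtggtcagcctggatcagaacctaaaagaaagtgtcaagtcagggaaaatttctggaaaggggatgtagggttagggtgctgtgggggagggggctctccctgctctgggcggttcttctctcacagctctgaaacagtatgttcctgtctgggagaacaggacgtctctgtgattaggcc
Neither window held a match to the interferon-stimulated response element (ISRE), the STAT motif GAS, the NF-kB motif or the C/EBP motif, searched on both strands. The letters were TTCNNNGAA for GAS and TTGCNNAA for C/EBP, and the ISRE and NF-kB patterns were 10 letters long. Each was searched as a fixed pattern, so sites with other letters would be missed. Over 32851 promoters of the same length, 3.44%, 8.3%, 1.63% and 10.8% held the 4 motifs in that order, so a window without a match is the usual case.

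*C1qa* stood at 2002, 2345 and 2059 normalized reads in the OE libraries at 1W, against 453, 262 and 348 in the control libraries. At 2W it had 6347, 2510 and 4761 in OE libraries and 488, 322 and 403 in controls, and at 5W 1471, 1386 and 2370 in OE libraries and 468, 263 and 304 in controls. Every OE library exceeded every control, and the OE libraries were farthest apart at 2W. The log2 fold change was 2.62 (SE 0.31, adjusted p = 1.22e-05 from limma) at 1W, 3.41 (SE 0.31, adjusted p = 1.33e-07) at 2W and 2.33 (SE 0.31, adjusted p = 2.11e-04) at 5W. *C1qb* ranged over 1481 to 1734 in OE and 232 to 290 in control libraries at 1W, 1381 to 3654 in OE and 254 to 381 in control libraries at 2W, and 919 to 1666 in OE and 243 to 375 in control libraries at 5W. Its log2 fold change was 2.57 at 1W, 2.99 at 2W and 1.99 at 5W. *C1qc* ranged over 1591 to 1685 in OE and 190 to 369 in control libraries at 1W, 1929 to 4234 in OE and 221 to 383 in control libraries at 2W, and 1001 to 1535 in OE and 213 to 387 in control libraries at 5W, with log2 fold changes of 2.60, 3.44 and 2.13. Replicate 2 of the OE group at 2W was the lowest OE library of its week for all 3 chains.

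The chains kept close to each other but not in one fixed ratio. Over the 18 libraries, *C1qc* differed from *C1qa* by a root mean square of 0.115 on the log2 scale after centring each gene, and *C1qb* by 0.204. The ratio of *C1qb* to *C1qa* reads was 0.55 to 0.61 in OE libraries at 2W, against 0.75 to 0.79 in controls. At 5W it was 0.62 to 0.70 in OE libraries and 0.80 to 0.94 in controls, also apart. At 1W the OE range of 0.72 to 0.78 lay inside the control range of 0.64 to 0.88. The ratio of *C1qc* to *C1qa* overlapped between OE and control libraries at each time, over 0.65 to 0.87 in all 18 libraries. The ratios were computed after the values were seen and are given as a description.

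Macrophage markers moved with the C1q chains. Of 18 listed macrophage markers 14 were higher at 1W, 17 at 2W and 14 at 5W, against 18.7%, 28.9% and 7.67% of all genes. This list too was chosen with earlier results of these data known. At each time 0 markers were lower by limma at an adjusted or unadjusted p under 0.05, or by edgeR or DESeq2. Over all genes 15.6%, 28.8% and 7.9% were lower by limma at an adjusted p under 0.05. The median log2 fold change of the 18 markers was 2.19, 2.76 and 1.83. Their summed reads were 22190 to 26344 in OE and 5679 to 7650 in control libraries at 1W, 28324 to 52607 in OE and 5675 to 6874 in control libraries at 2W, and 14834 to 20668 in OE and 5716 to 6646 in control libraries at 5W. The OE library with the lowest C1q reads at 2W, replicate 2, also had the lowest macrophage sum of its group. Set against the marker sum, the 3 C1q chains together came to 19.5% to 26.0% in OE and 11.7% to 15.6% in control libraries at 1W. The share was 20.6% to 27.1% in OE and 13.2% to 18.2% in control libraries at 2W, and 22.2% to 27.0% in OE and 12.6% to 18.5% in control libraries at 5W. Each OE library thus had a higher share than each control library. Singly, 5 of the 18 markers had a larger log2 fold change than *C1qa* at 1W, 4 at 2W and 5 at 5W. The part of macrophage number in the C1q values was not tested.

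**Figure D2:**
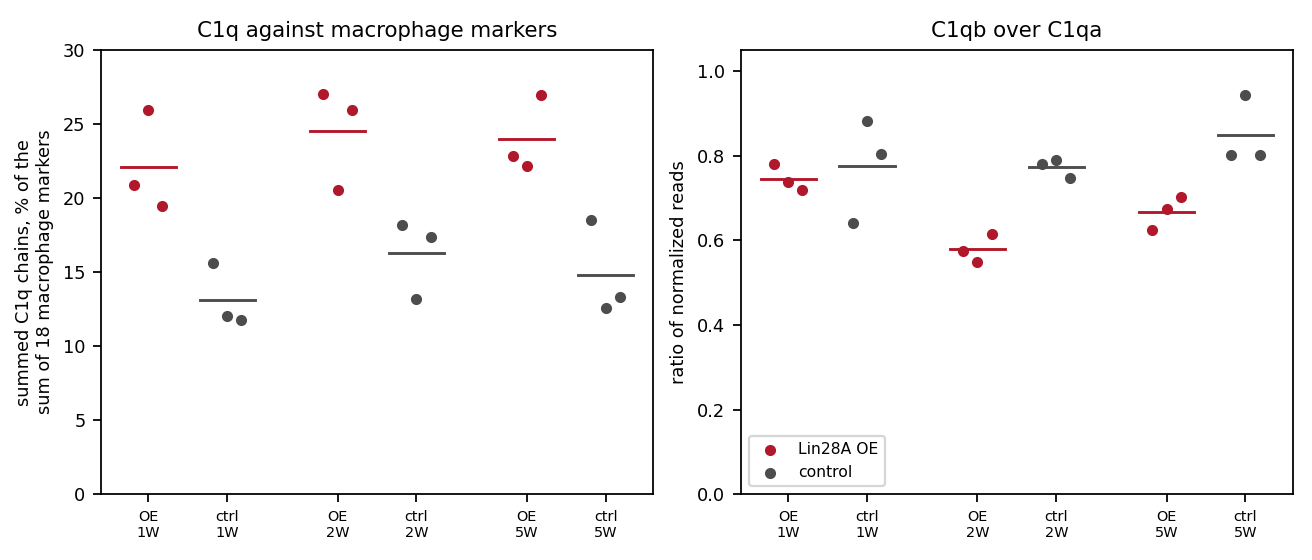
Left, summed reads of the 3 C1q chains as a percentage of the summed reads of 18 macrophage markers; right, the ratio of *C1qb* to *C1qa* reads, in each library with *Lin28A* OE (red) left of control (grey) and lines at group means. All OE libraries lie at 19.5% or more and all controls at 18.5% or less, and the ratio is lower in OE than in control libraries at 2W and 5W.

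*Serping1* encodes C1 inhibitor, the serpin that inactivates the proteases of C1 and of the lectin pathway. It lies on the minus strand of chromosome 2 at 84765387 to 84775444. At 1W it had 4776, 3419 and 5968 normalized reads in OE libraries, against 3118, 2059 and 2039 in controls. At 2W it had 4385, 3564 and 4612 in OE libraries and 2419.6, 1390.0 and 1542 in controls, and at 5W 9012, 5445 and 6876 in OE libraries and 2901, 2725 and 2386 in controls. It was the most highly expressed member of control kidneys per kilobase of exon, and its OE libraries exceeded the controls at each time with ratios of means of 1.96 at 1W, 2.35 at 2W and 2.66 at 5W. The log2 fold change was 0.97 (SE 0.24, adjusted p = 0.00569 from limma) at 1W, 1.27 (adjusted p = 2.91e-04) at 2W and 1.39 (adjusted p = 0.00148) at 5W. Thus *Serping1* was the member that passed the test at 1W without reaching a log2 fold change of 1.

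*C4b* and *C2* encode the substrates of the C1 proteases, which together form the classical C3 convertase. *C4b* lies on the minus strand of chromosome 17 at 34728380 to 34743882. It had 146, 263 and 313 normalized reads in OE libraries at 1W, against 54.6, 31.7 and 159 in controls. At 2W it had 343, 309 and 742 in OE libraries and 89.1, 73.3 and 63.8 in controls, and at 5W 293, 271 and 349.8 in OE libraries and 67.6, 43.8 and 31.7 in controls. The groups overlapped at 1W through control replicate 3 and OE replicate 1, and were apart at 2W and 5W. The log2 fold change was 1.80 (SE 0.48, adjusted p = 0.008 from limma) at 1W, 2.50 (adjusted p = 2.68e-04) at 2W and 2.71 (adjusted p = 0.00152) at 5W.

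*C4b* has a near-identical neighbour, *C4a*, and 1306 of its 5762 transcript stretches of 75 bases, the read length, occur in *C4a* as well (22.7%). Reads from these stretches cannot be assigned to either gene. *C4a* itself had 6.84, 14.3 and 48.9 normalized reads in OE libraries at 1W and 34.6, 19.7 and 78.8 in controls. Its log2 fold change was -1.10 at 1W, -0.98 at 2W and 0.06 at 5W, and none of these passed the test (adjusted p = 0.176, 0.179 and 0.964 from limma). Without OE replicate 3 at 1W the value at 1W was -1.83 and passed (adjusted p = 0.0261), and at 2W it passed in a fit of the compared groups alone (adjusted p = 0.0287).

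*C2* did not pass the test at any time. Its reads were 457, 726 and 477 in OE libraries at 1W, against 386, 336 and 551 in controls. At 2W they were 745, 832 and 561 in OE libraries and 603, 512 and 491 in controls, and at 5W 595, 715 and 729 in OE libraries and 605, 406 and 529 in controls. The groups overlapped each time. The log2 fold change was 0.38, 0.40 and 0.42 (SE 0.22 each, adjusted p = 0.19, 0.129 and 0.213 from limma), the 3 values lying within 1 SE of each other.

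*C3* had the largest log2 fold change of the members at 2W and 5W, while at 1W *Cfi* and the C1q chains had larger ones. The gene, the point where all pathways converge and the source of the opsonin that coats targets, lies on the minus strand of chromosome 17 at 57203970 to 57228136. Its RefSeq promoter (GRCm38.p6, minus strand, chr17:57228087-57228386) is printed 5′ to 3′ because its gene had the largest change at 2W and 5W, with capitals on the single match found, a C/EBP motif (TTGCNNAA) whose first base lies 45 bases before the start.
C3: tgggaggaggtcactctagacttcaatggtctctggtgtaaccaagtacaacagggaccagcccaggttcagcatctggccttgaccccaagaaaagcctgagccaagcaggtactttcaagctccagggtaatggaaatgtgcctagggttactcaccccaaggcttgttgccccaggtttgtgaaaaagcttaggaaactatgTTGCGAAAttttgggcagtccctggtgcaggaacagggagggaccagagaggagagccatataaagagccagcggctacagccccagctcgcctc
The ISRE, GAS and NF-kB patterns had no match in this window, where sites with other letters would again be missed. C/EBP motifs occur in 10.8% of the 32851 promoters of this length, and the match is a description of the letters only.

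At 1W *C3* had 2274, 4260.3 and 5023 normalized reads in OE libraries, against 383, 596 and 1614 in controls. At 2W it had 17272, 16359 and 18969 in OE libraries, against 807, 538 and 388 in controls. At 5W it had 4595, 10451 and 8583 in OE libraries, against 524, 259.8 and 373 in controls. The OE libraries at 2W lay close together and above all other libraries, while the controls at 1W were spread 4.21-fold, with replicate 3 the highest of all 9 controls. The ratio of means, OE over control, was 4.46 at 1W, 30.4 at 2W and 20.4 at 5W. The log2 fold change was 2.35 (SE 0.45, adjusted p = 8.30e-04 from limma) at 1W, 4.98 (SE 0.45, adjusted p = 1.30e-07) at 2W and 4.33 (SE 0.45, adjusted p = 2.90e-05) at 5W. Markers of liver cells, the main source of plasma C3, moved in both directions at 1W and 2W. *Alb*, the albumin gene and the defining marker of hepatocytes, averaged 10.9 reads in OE and 41.7 in control kidneys at 1W, 6.20 in OE and 74.2 in control kidneys at 2W, and 13.7 in OE and 27.7 in control kidneys at 5W. *Alb* passed the test as lower at 2W only, and its OE and control libraries overlapped at 1W and 5W. Of 11 tested hepatocyte markers 4 were higher and 1 lower at 1W, 4 higher and 3 lower at 2W, and 5 higher at 5W. Over all genes tested 18.7%, 28.9% and 7.67% were higher and 15.6%, 28.8% and 7.9% lower. The counts at 2W thus lay near the shares of all genes. The fibrinogen genes *Fga*, *Fgb* and *Fgg* were higher at each time. The summed reads of the hepatocyte list were 3035 to 19381 in OE and 7650 to 12104 in control libraries at 1W, which overlapped. At 2W they were 11562 to 18756 in OE and 7666 to 45931 in control libraries, which overlapped too. At 5W they were 6165 to 19217 in OE and 3904 to 6071 in control libraries, where the groups were apart. A large part of the OE sum at 5W was *Ttr*, which averaged 6934 in OE and 380 in control kidneys and did not pass the test. The part of the hepatocyte markers in the *C3* values was not tested.

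Factor B, encoded by *Cfb*, supplies the protease of the alternative pathway convertase. It was the 1 member with lower mean reads in OE than in control kidneys at all 3 times. *Cfb* had 161, 202 and 200.01 normalized reads in OE libraries at 1W, against 190, 235 and 366 in controls. At 2W it had 147, 179.9 and 165 in OE libraries and 169, 391 and 268 in controls, and at 5W 172, 154 and 156 in OE libraries and 272, 199 and 154 in controls. The groups overlapped each time, and the log2 fold change was -0.44, -0.67 and -0.33 (SE 0.28 each, adjusted p = 0.25, 0.0534 and 0.466 from limma). The value at 2W crossed the threshold with edgeR (-0.71, adjusted p = 0.0392), with DESeq2 (-0.75, adjusted p = 0.0196) and without control replicate 1 at 2W (-0.98, adjusted p = 0.00667).

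The readout of *Cfb* and *C2* was limited by another gene annotated over them. *Cfb* (chromosome 17, 34856374 to 34862518) and *C2* (34862604 to 34898265) follow each other on the minus strand, and *Gm20547* is annotated with exon bases of both on the same strand. Of the 2825 exon bases of *Cfb*, 2246 (79.5%) are also exon bases of *Gm20547*, and the 579 that are not include 1 run of 467 at the 5′ end of the gene. Of the 3872 exon bases of *C2*, 1817 (46.9%) are shared, 1656 with *Gm20547* and 161 with *Zbtb12* on the opposite strand. *Gm20547* was listed at 0 in all 18 libraries. How reads on shared bases were counted is not given in the sources used here, so the levels of *Cfb* and *C2* are uncertain and may rest on part of each gene.

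**Figure D3:**
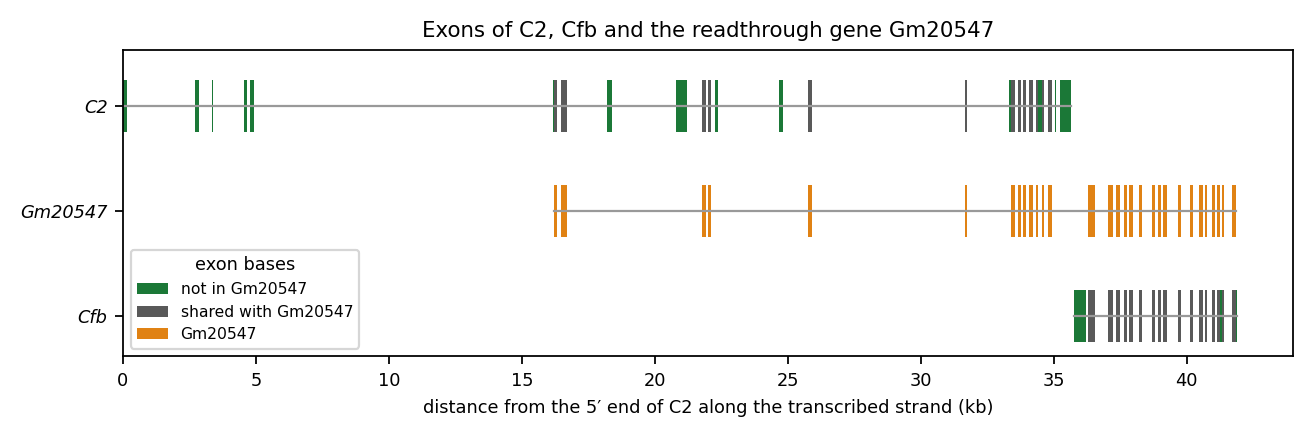
Exons (boxes) of *C2*, *Gm20547* and *Cfb* by distance in kb from the 5′ end of *C2* along the transcribed strand; green boxes are exon bases of *C2* or *Cfb* outside *Gm20547*, grey boxes are bases shared with it. Of *Cfb*, 579 of 2825 exon bases are green, mostly in its first 467 bases.

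*Cfi* encodes factor I, the plasma protease that cleaves and inactivates C3b and C4b with the help of cofactors. It lies on the plus strand of chromosome 3 at 129835884 to 129875332. It had 553, 1191 and 576 normalized reads in OE libraries at 1W, against 226, 55.8 and 112 in controls. At 2W it had 284, 399 and 371 in OE libraries and 229.8, 150.0 and 84.3 in controls, and at 5W 223, 379 and 472 in OE libraries and 88.8, 86.6 and 48.1 in controls. The groups did not overlap, but at 2W the lowest OE and the highest control library were close. The log2 fold change was 2.68 (SE 0.47, adjusted p = 4.02e-04 from limma) at 1W, 1.28 (SE 0.47, adjusted p = 0.0278) at 2W and 2.24 (SE 0.47, adjusted p = 0.00481) at 5W. The call at 2W was lost without OE replicate 2 (1.18, adjusted p = 0.0782), OE replicate 3 (1.23, adjusted p = 0.0653), control replicate 2 (1.31, adjusted p = 0.0529) or control replicate 3 (0.90, adjusted p = 0.139).

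**Figure D4:**
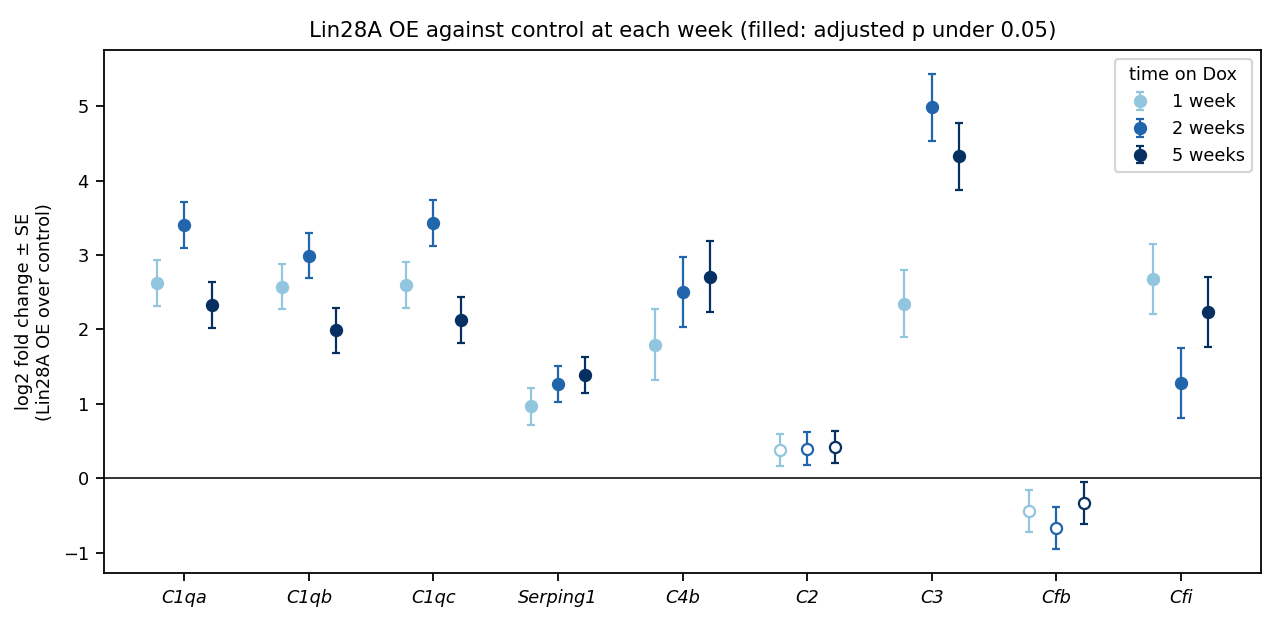
Log2 fold change of *Lin28A* OE over control, with standard error bars from limma, for the 9 members at 1, 2 and 5 weeks (light to dark blue), 3 libraries per group; filled points passed at an adjusted p under 0.05. *C3* reaches 4.98 at 2W, the C1q chains peak at 2W, and *C2* and *Cfb* stay unfilled at each time.

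Whether the OE effect itself differed between times was tested by interaction. Between 1W and 2W it differed for 1 of 9 members, *C3*, where it was larger at 2W by 2.64 on the log2 scale (SE 0.64, adjusted p = 0.0176 from limma), against 9.07% of all genes tested. Without OE replicate 1 at 1W this value was 2.30 (adjusted p = 0.0575). Between 2W and 5W it differed for 1 member, *C1qc*, smaller at 5W by 1.31 (log2 difference -1.31, SE 0.44, adjusted p = 0.0343), against 29.3% of all genes. *C1qa* (-1.07, adjusted p = 0.0763) and *C1qb* (-1.0, adjusted p = 0.0899) had log2 differences near that of *C1qc* and did not pass, so the chains are not shown to differ from each other in this. The *C1qc* call was lost without OE replicate 1 or 3 at 2W, control replicate 2 or 3 at 2W, OE replicate 1 or 2 at 5W, or control replicate 1 at 5W, with adjusted p values between 0.0608 and 0.091. All 3 chains passed without OE replicate 2 at 2W, the library with the lowest C1q reads of its group, and without OE replicate 3 at 5W.

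Between 1W and 5W no member had an effect that differed by limma at an adjusted p under 0.05, against 6.99% of all genes. At an unadjusted p under 0.05 there was 1, *C3* (1.98, adjusted p = 0.0736), edgeR gave 0 and DESeq2 gave 1. *C3* passed without control replicate 1 at 1W (2.43, adjusted p = 0.0291) and without OE replicate 1 at 5W (2.33, adjusted p = 0.0381). *Cfi* had its smallest effect at 2W, but its difference from 1W was -1.40 (SE 0.66) and did not pass, with an unadjusted p of 0.0509 from limma.

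Control kidneys of different weeks were compared in the same fit. No member passed between controls at 2W and 1W, at 5W and 2W, or at 5W and 1W by limma, where 0.0177%, 0.0883% and 0.0% of all genes did. At an unadjusted p under 0.05 there were 0, 1 and 0 members, the 1 being *Serping1* (log2 difference 0.62, 5W over 2W), and edgeR and DESeq2 gave 0 each time. For *C3* the log2 difference between controls was -0.95 (SE 0.45) for 5W over 1W and did not pass.

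Levels of different members were compared per kilobase of annotated exon. In OE kidneys at 2W *C1qa* came first with 4365 ± 1854 normalized reads per kb (SD, n = 3), followed by *C3* with 3409 ± 258, *C1qb* with 2439 ± 1067, *Serping1* with 1801 ± 237 and *C1qc* with 1711 ± 629. Neighbours in this order overlapped between libraries, and a gap followed before *C2* (184 ± 35.7), *Cfi* (158 ± 26.9), *C4b* (81.6 ± 42.2) and *Cfb* (58.0 ± 5.90), which overlapped in turn. In control kidneys at 2W *Serping1* led with 767 ± 239, apart from *C1qa* with 389 ± 79.7, and *C3* came sixth with 112 ± 41.2. *Serping1* was also first in controls at 1W (1034 ± 266) and 5W (1149 ± 113), apart from the next gene each time. In OE kidneys at 1W *C1qa* (2053 ± 177) and *Serping1* (2031 ± 549) overlapped at the top, and at 5W *Serping1* (3058 ± 772) was first and apart from *C1qa* (1675 ± 524). Counted per kb of exon bases not covered by another gene, an alternative chosen after seeing the data, *Cfb* moved up from place 7 to place 2 in controls, so its place in the order is uncertain.

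The members *C3*, *C1qa* and *Serping1* were set against all other tested genes for likeness of pattern, measured as the root mean square difference of centred log2 values over 18 libraries. For *C3* the nearest were *Ccr1*, a chemokine receptor gene of leukocytes (0.506), *Adam23*, a disintegrin family gene (0.582), and *Cd84*, a leukocyte surface receptor gene (0.59). The log2 fold changes of *Ccr1* were 2.83, 5.14 and 3.73 at 1W, 2W and 5W. For *C1qa* they were *Pld4*, *Clec4a1* and *Lilrb4a* (0.287, 0.293 and 0.315), all known from myeloid cells, and all farther from *C1qa* than *C1qb* and *C1qc*. For *Serping1* they included *Tpm1*, a tropomyosin gene (0.279), and *Il1rl2*, an interleukin receptor gene (0.285). No member was nearer to *C3* than *C1qa* at 0.942.

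Of the other complement genes 43 were listed and 34 could be tested. At 1W 8 were higher and 3 lower, at 2W 14 and 8, and at 5W 11 and 3. Over all genes tested 18.7% were higher and 15.6% lower at 1W, 28.9% and 28.8% at 2W, and 7.67% and 7.9% at 5W. Leaving out single libraries gave 8 to 9 higher and 2 to 4 lower at 1W, 13 to 16 and 7 to 8 at 2W, and 8 to 11 and 0 to 3 at 5W. Without OE replicate 2 or control replicate 1 at 5W the calls on *Mbl1*, *Cd59a* and *Cd59b*, the 3 lower genes of that week, were lost. Over the 34 tested genes the median log2 fold change was 0.25 at 1W, 0.47 at 2W and 0.57 at 5W.

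Among the initiating proteins, of the 4 tested proteases of the C1 complex 0 passed at 1W, and 1 was higher at 2W (*C1ra*, 0.77, adjusted p = 0.00643 from limma) and 1 at 5W (*C1s1*, 1.00, adjusted p = 0.037), where 18.7%, 28.9% and 7.67% of all genes were higher. Their median log2 fold change was 0.37, 0.61 and 0.84, and DESeq2 called 2 higher at 2W and 2 at 5W. At 1W 1 of the 4 had an unadjusted p under 0.05, and edgeR gave 1 and DESeq2 0. The *C1s1* call was lost when any of 4 libraries was left out (adjusted p up to 0.131). Of the lectin pathway, 2 of 4 tested genes were lower by limma at 1W and 2W and 1 at 5W. Over all genes tested 15.6%, 28.8% and 7.9% were lower at these times. By limma 0 were higher, with 1 higher at 2W at an unadjusted p under 0.05 and also 1 by edgeR and by DESeq2. *Mbl1*, a mannose-binding lectin, had 2.67, 0.89 and 2.43 normalized reads in OE libraries at 2W, against 78.8, 48.9 and 62.6 in controls, with a log2 fold change of -2.15 at 1W, -4.46 at 2W and -1.72 at 5W. *Colec11*, a collectin, had a log2 fold change of -1.34 at 1W, a call lost when any 1 of 6 libraries was left out, and -1.50 at 2W (adjusted p = 0.0112). The *Mbl1* call at 5W was lost in 5 of 6 such fits (adjusted p up to 0.153).

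In the alternative pathway *Cfp*, encoding properdin, which stabilizes the C3 convertase, was higher at each time, unlike *Cfb*. It had 765, 427 and 601 normalized reads in OE libraries at 2W, against 203, 117 and 121 in controls. Its log2 fold change was 1.92 (SE 0.27, adjusted p = 5.47e-05 from limma) at 1W, 2.03 at 2W and 1.17 at 5W.

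The terminal components, which build the membrane attack complex, split. *C7* was higher at each time, with 551, 1393 and 1567 normalized reads in OE libraries at 2W against 141, 199 and 136 in controls, and log2 fold changes of 2.08, 2.76 and 2.90. *C6* was higher at 1W (1.72) and 2W (2.89), and at 5W had 1.39 (adjusted p = 0.0549). *C8a* had 0.89, 9.79 and 12.1 normalized reads in OE libraries at 2W and 103, 366 and 100.2 in controls, a log2 fold change of -4.61 (SE 0.90, adjusted p = 3.51e-04). *C8g* was lower at 1W (-1.19) and 2W (-2.33). *C6* and *C8g* are named here after their values were seen. *Hc*, the gene of C5, was below the level tested, with 41 reads over the 9 OE and 2 over the 9 control libraries, as were *C8b* with 3 and 5 reads and *C9* with 4 and 6.

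Soluble regulators other than *Cfi* and *Serping1* showed both directions at 2W. *Clu*, encoding clusterin, an inhibitor of the terminal complex named here after its values were seen, was higher at 2W (1.79) and 5W (1.44). *Vtn*, encoding vitronectin (-2.05), and *Cpn1*, encoding a carboxypeptidase that inactivates anaphylatoxins (-2.31), were lower at 2W. The *Cpn1* call was lost when 1 library, control replicate 2 at 2W, was left out (-1.54, adjusted p = 0.092). At 5W *Cpn1* had 1402, 354 and 368 normalized reads in OE libraries, against 249, 80.2 and 268 in controls, with all OE libraries above the controls and a log2 fold change of 1.69 that did not pass (adjusted p = 0.138).

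Of 7 tested regulators on cell membranes, 0 passed at 1W in either direction, by limma at an adjusted or unadjusted p under 0.05 and by edgeR and DESeq2. At 2W 2 were higher and 1 lower, and at 5W 1 higher and 2 lower, where 28.9% and 28.8% of all genes were higher and lower at 2W and 7.67% and 7.9% at 5W. The lower call on *Cd59a* at 5W (-0.58) was lost in all 6 fits without 1 library (adjusted p up to 0.104). *Csmd1*, a large complement control protein gene, had log2 fold changes of 1.12 at 2W, a call lost in 3 of 6 fits without 1 library, and 2.88 (adjusted p = 2.76e-04) at 5W. *Cd59b*, encoding an inhibitor of the attack complex, was lower at 2W (-1.68, adjusted p = 3.88e-04) and 5W (-1.32, adjusted p = 0.0138).

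Most receptors rose. Of 7 tested, 5 were higher at 1W, 6 at 2W and 5 at 5W, against 18.7%, 28.9% and 7.67% of all genes. At 5W the calls on *C5ar2* and *Itgax* were lost in 4 and 5 of 6 fits without 1 library. *Itgam*, a chain of complement receptor CR3, had 641, 293 and 422 normalized reads in OE libraries at 2W, against 16.8, 12.2 and 19.4 in controls. *C3ar1*, the receptor of the C3a fragment, had 904, 290.3 and 957 in OE libraries at 2W, against 55.5, 24.4 and 35.3 in controls. The log2 fold changes were 3.28, 4.67 and 2.71 for *Itgam* and 2.35, 4.08 and 2.87 for *C3ar1* at 1W, 2W and 5W. Both receptors are carried by myeloid cells, and the part of myeloid cell number in these values was not tested. *Cr2*, a receptor of B cells and follicular dendritic cells, went the other way at 2W (-0.74, adjusted p = 0.0456), a call lost in 5 of 6 fits without 1 library.

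**Figure D5:**
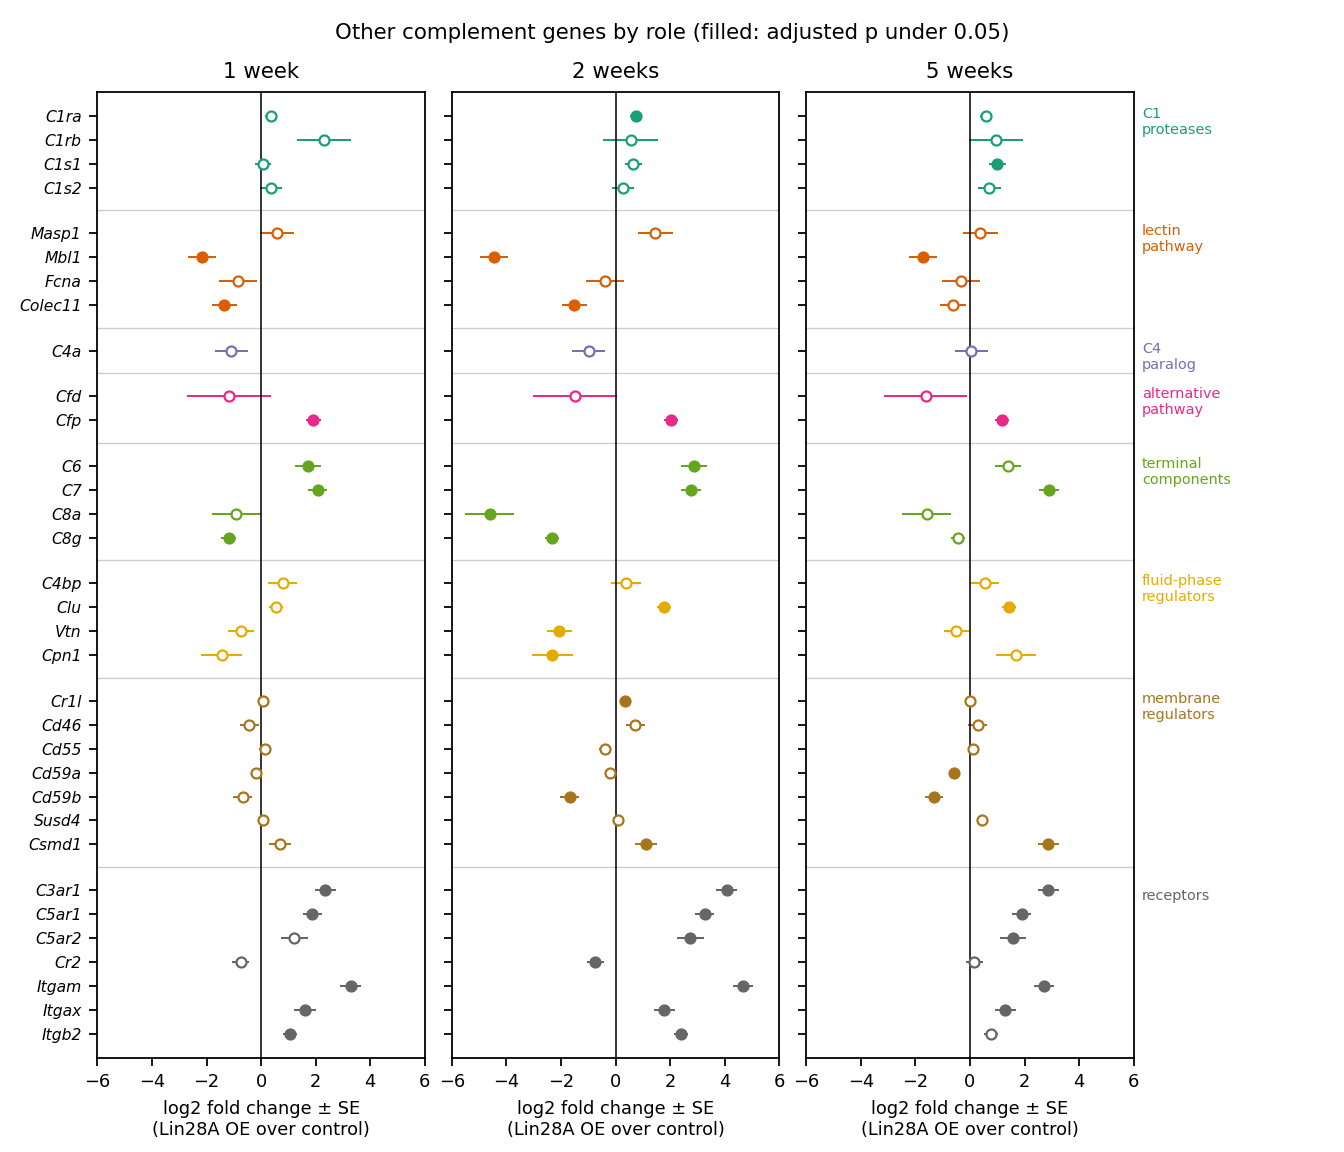
Log2 fold change of *Lin28A* OE over control, with standard error bars from limma, for 33 of the 34 other complement genes tested, by role, at 1, 2 and 5 weeks; filled points passed at an adjusted p under 0.05. Receptors other than *Cr2* and also *Cfp* lie to the right, *Mbl1*, *C8a* and *C8g* to the left at 2W, and membrane regulators near 0 except *Csmd1* and *Cd59b*.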

How the data were processed

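PolyA RNA of 18 kidney libraries in 6 groups of 3 was sequenced in 75-base single reads. The deposited table holds normalized signal: the authors aligned to mm10 (STAR), took gene counts with HTSeq and scaled each library by its DESeq2 size factor (tool versions are not given in the sources used here). When the scaling was undone, 100% of the values were whole reads within 0.001. Replicates were not pooled.

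The 16984 genes with a mean above 10 were tested on log2(value + 1) with limma 3.58.1 (intensity trend) in R 4.3.3, in 1 fit of all libraries, with Benjamini-Hochberg adjustment over all of them. The unit is a normalized value, so limma was kept as planned, and edgeR 4.0.16 and DESeq2 1.42.0 were run on the recovered reads as alternatives. The members and gene lists were chosen with earlier results of these data known. Named genes were the members, up to 2 genes per role of the other complement genes with the largest change past the test and any against most of its role, and the 3 genes most like *C3*, *C1qa* and *Serping1*. Coordinates came from GENCODE (GRCm38) and promoters from RefSeq, which matched 3 of 9 members. Of the listed complement genes 1 is counted but not reported here by name. limma was tested on simulated data. Plots used matplotlib 3.10.9 (Python 3.11.15). Counts of few reads are limited by counting error.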

Additional observations from a re-analysis of the deposited data

Results flagged for a closer look

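The effect of *Lin28A* OE on *C3* differed between times, larger at 2W than at 1W by 2.637 on the log2 scale (SE 0.64, adjusted p = 0.0176, interaction by limma). Of all genes tested 9.07% differed between these times. The *C3* call was lost without OE replicate 1 at 1W (adjusted p = 0.0575 from limma). The effect on *C1qc* differed between 5W and 2W, with a log2 difference of -1.305 (SE 0.44, adjusted p = 0.0343), and the values of *C1qa* and *C1qb* lay close to it. Of all genes tested 29.3% differed between these times. The *C1qc* call was lost in several fits without a single library (adjusted p up to 0.091 from limma). It was also lost with no filter on low values (adjusted p = 0.0531) and in a fit of the compared groups alone (adjusted p = 0.0547). The values of *C3* and *C1qc* were picked out because the difference between times was itself past the test in the main fit.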

How the results depend on the processing

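Member fold changes and their differences had 1620 values under other settings. Of these, 1591 kept their side of the threshold, 14 lost a call and 15 gained one. No value changed direction where it or the main value passed. Direction was not compared where neither passed, and some of these values changed sign. For *C2* the 1W to 2W interaction was 0.0158 in the main fit and -0.1884 to 0.2275 under other settings. The 7 members past the test at 1W and 5W remained 7 under each setting, and at 2W the number was 6 to 8, through *Cfi* and *Cfb*. The interactions were less stable. Between 1W and 2W the number of members was 0 to 1 when single libraries were left out. Between 2W and 5W it was 0 with no filter on low values, 0 in a fit of the compared groups alone, 3 with DESeq2 and 0 to 3 when single libraries were left out. Between 1W and 5W it was 1 with DESeq2 and 0 to 1 when single libraries were left out. The cause was not tested. Over all genes, same-numbered libraries did not deviate together (r between -0.191 and 0.206), so no pairing by number was seen. The check used deviations from means of 3 libraries and cannot exclude pairing. With the replicate number as a block the count between 2W and 5W was 2. The *Xist* level as a covariate changed no member call. Among the other complement genes at 1W it lost the call on *Colec11* (adjusted p = 0.0541 from limma). It gained a lower call on *Cr2* (adjusted p = 0.0391). The paper lists *Xist* among its genes with early upregulation, and the balance of sexes between groups was not tested. Settings of pseudocount, filter, quantile or upper-quartile scaling and robust moderation changed calls on *Cfb* at 2W and *C1qc* only. Precision is limited by the 3 libraries per group.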
